A study of Danio rerio with 4 samples.

Results

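The genes described here encode enzymes of glycolysis, which splits glucose to pyruvate, and of gluconeogenesis, which rebuilds glucose from smaller molecules. They are pck1, pck2, fbp1b, aldoaa, gapdh, gapdhs, pkma, eno1a and eno3, chosen by name. All 9 were found by symbol in the Ribo-seq table, which holds 25196 genes, and by gene ID in the RNA-seq table, which holds 26662 genes. Zebrafish heads were collected at 5 days post-fertilization (dpf) from noc4l mutants and from their siblings. RNA-seq measured the transcripts and Ribo-seq measured footprints, the fragments of mRNA that a ribosome protects from nuclease. The study's methods describe how footprints were isolated, but the labels give the Ribo-seq samples the same poly(A) library text as the RNA-seq samples, so the footprint values rest on the methods. Each genotype has 1 library in each assay, so 4 libraries were compared, and no test of a difference between genotypes was possible. The mutants carry a small CRISPR/Cas9 deletion in the fourth exon of noc4l, made in the AB strain, that brings an early stop of translation. The labels give the genotype of the sibling libraries as WT, whereas the study's text speaks of siblings. How many heads went into each library is not stated, and the heads for RNA-seq and for Ribo-seq were collected separately.

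Glycolysis runs in nearly every cell, and vertebrates keep several gene copies for many of its steps, with liver, muscle and brain each using its own set. Gluconeogenesis, in mammals a task mainly of liver and kidney, shares most of these enzymes but needs phosphoenolpyruvate carboxykinase (pck1 in the cytosol, pck2 in mitochondria) and fructose-bisphosphatase (fbp1a, fbp1b, fbp2) to pass the irreversible steps. Aldolase, glyceraldehyde phosphate dehydrogenase and enolase work in both directions, while pyruvate kinase acts at the end of glycolysis only. Noc4l is a nucleolar protein needed to make the small ribosomal subunit.

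The estimated counts came to 15018488 for the siblings and 17395024 for the mutants in RNA-seq, and to 12181046 and 19823848 in Ribo-seq. noc4l itself had 443 RNA counts in siblings and 45 in mutants, and 93 and 15 footprint counts, as the genotype labels would have it. The 4 most abundant genes of a library held 51.1% of the sibling footprints and 19.0% of the mutant footprints, against 5.40% and 7.14% of the RNA counts. Libraries were therefore scaled by TMM, a method that is little moved by a few very abundant genes. Ratios are given as log2 of mutant to sibling after scaling, so that -1 is a 2-fold lower and 1 a 2-fold higher level. Brackets hold 95% intervals that cover counting error only and not the spread between fish. Genes are called higher or lower where the libraries differ by at least 2-fold, and measured where an assay gave them 100 counts or more in all. TMM places the typical gene near a ratio of 1, so these ratios, and what is derived from them, are relative to the other genes. They cannot show a change in RNA or in translation as a whole. The median log2 ratio of all measured genes was 0.01 in RNA and 0.02 in footprints. Scaling by total counts instead raised every footprint ratio alike and put that median at 0.74, while ratios between paralogs stay as they are. Footprint ratios as low as that of eno3, at -0.46, turn positive under it (0.26 for eno3).

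The heads held RNA of more than brain and sense organs. Markers of neurons, photoreceptors, glia and skeletal muscle were found, and so were those of liver, intestine and exocrine pancreas. In bulk libraries, fewer cells of a type and less RNA in each cell cannot be told apart. Summed liver marker RNA was 17795.1 CPM (counts scaled to the same library size) in siblings and 7449.7 CPM in mutants. For skeletal muscle markers these sums were 48758.3 and 61552.6 CPM, and for neuron markers 4059.1 and 4194.0 CPM. No marker of these 3 lists was at 0 in any library. The liver sum hides a wide spread between its markers. fabp10a had 5052 RNA counts in siblings and 33 in mutants (log2 ratio -7.53). tfa had 42521 and 2670 (-4.29), and ahsg2 had 108 and 1. In contrast, 7 of the 19 liver markers had an RNA ratio above 1.

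The genes that belong to gluconeogenesis alone had the lowest RNA ratios of the 9. In RNA, pck1, pck2 and fbp1b were lower in the mutant library and none of the 9 was higher. Over all 17243 measured genes, 6.16% were lower and 3.14% higher. In footprints, 4 of the 9 were lower, namely those 3 and gapdh, and none was higher, against 3.61% lower and 1.89% higher of 15729 genes. The median log2 ratio of the 9 genes was -0.81 in RNA and -0.46 in footprints.

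pck1 (ENSDARG00000013522) had 6286 RNA counts in siblings and 3379 in mutants. Per length this was 157.2 and 73.0 FPKM, a log2 ratio of -1.19 (-1.25 to -1.13). Its footprints were 482 counts in siblings and 369 in mutants, or 13.5 and 8.17 TPM, with a log2 ratio of -1.80 (-2.00 to -1.60). Both assays thus gave a lower level in the mutant library, by 2.28-fold in RNA and 3.48-fold in footprints. pck1 overlaps pmepa1 in the annotation used for names, but pmepa1 had only 16 and 17 RNA counts and 15 and 38 footprint counts.

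pck2 (ENSDARG00000020956) had 5395 RNA counts in siblings and 3295 in mutants, or 105.2 and 55.5 FPKM. Its RNA ratio lay just inside the rule, at 2.01-fold lower. The log2 interval was -1.07 to -0.94 and so spanned the threshold. Its footprints were 476 and 569 counts, or 13.2 and 12.5 TPM, with a scaled log2 ratio of -1.16 (-1.34 to -0.98). pck1 was lower than pck2 in relative terms. The ratio of pck1 to pck2, which no scaling between libraries can change, differed between mutant and sibling by -0.18 in RNA (-0.27 to -0.10) and by -0.64 in footprints (-0.90 to -0.38).

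fbp1b (ENSDARG00000020364) had the lowest ratio of the 9 genes in both assays. It had 4015 RNA counts in siblings and 1406 in mutants, or 189.7 and 57.4 FPKM, a log2 ratio of -1.81 (-1.90 to -1.72). Its estimated footprint counts were 277 and 162, or 14.3 and 6.60 TPM, with a log2 ratio of -2.19 (-2.48 to -1.91). Its paralog fbp1a was also below 1 in ratio but not past 2-fold, with log2 ratios of -0.74 in RNA and -0.32 in footprints. The fbp1b to fbp1a ratio was therefore 2.10-fold lower in mutant RNA and 3.65-fold lower in mutant footprints. Of the summed FPKM of the 3 fructose-bisphosphatase genes fbp1b held 72.4% in siblings and 60.9% in mutants. Of their TPM it held 34.8% in siblings and 13.0% in mutants. fbp2, the muscle gene of this family in mammals, had 719 and 320 RNA counts (log2 ratio -1.46) and only 18 and 14 footprint counts, under the minimum.

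**Figure D1:**
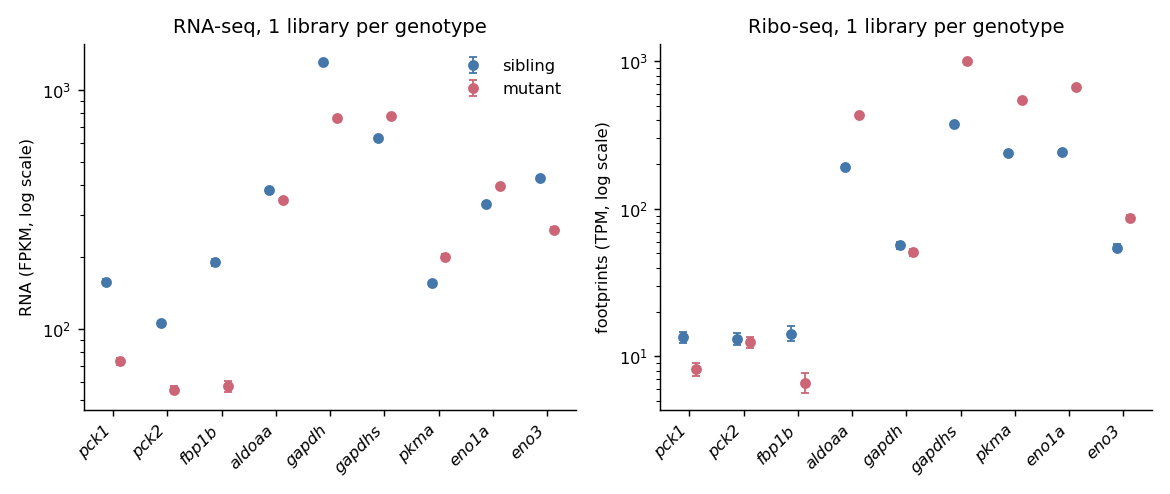
RNA in FPKM (left) and footprints in TPM (right) of the 9 genes on log scales, with 1 point per library and bars for the 95% counting interval. The values are as deposited, without TMM scaling, and the 3 gluconeogenic genes, gapdh, eno3 and, by the least, aldoaa sit lower in the mutant RNA library, while in TPM, whose total includes the very abundant footprint genes, eno3 sits higher at 87.0 against 54.5.

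The glyceraldehyde phosphate dehydrogenase genes, which serve the central oxidation step of glycolysis, moved apart. gapdh (ENSDARG00000043457) was the most abundant of the 9 in sibling RNA, with 26300 counts and 1316 FPKM. In the mutant library it had 17678 counts and 763.5 FPKM, a log2 ratio of -0.87 (-0.90 to -0.84), just short of the 2-fold rule. Its footprints were 1087 and 1231 counts, or 56.6 and 50.8 TPM, with a scaled log2 ratio of -1.24 (-1.36 to -1.12). gapdhs (ENSDARG00000039914), named after the mammalian gene of sperm, had 13715 and 19618 RNA counts, or 628.9 and 776.7 FPKM, a log2 ratio of 0.22 (0.19 to 0.25). Its footprints were 7238 and 24337 counts, or 374.8 and 998.8 TPM, with a log2 ratio of 0.33 (0.30 to 0.37). So the ratio was below 1 for gapdh and slightly above 1 for gapdhs in both assays.

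Set against each other, gapdh was 2.13-fold lower than gapdhs in mutant RNA relative to sibling RNA, and 2.97-fold lower in footprints. gapdhs made up 34.3% of the RNA counts of both genes in siblings (exact binomial interval 33.8% to 34.7%) and 52.6% in mutants (52.1% to 53.1%). In FPKM its share was 32.3% and 50.4%. Among footprints gapdhs already held 86.9% of the TPM in siblings and 95.2% in mutants. The gene with more RNA in the sibling library was thus not the gene with more footprints.

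Among the enolases, which form phosphoenolpyruvate, the copy of the muscle gene of mammals had an RNA ratio below 1 and that of the widely used gene did not. eno3 (ENSDARG00000039007), the muscle enolase, had 9569 and 6692 RNA counts in sibling and mutant, or 429.7 and 259.6 FPKM, a log2 ratio of -0.81 (-0.86 to -0.76). Its footprints were 1314 and 2558 counts, with a log2 ratio of -0.46 (-0.55 to -0.36) that became 0.26 under scaling by total counts, so the direction of its footprints depends on the scaling. eno1a (ENSDARG00000022456), a copy of the widely expressed enolase, had 8851 and 12004 RNA counts, or 333.6 and 395.1 FPKM, a log2 ratio of 0.15 (0.11 to 0.19). Its footprints were 5701 and 19994 counts, or 244.4 and 665.6 TPM, with a log2 ratio of 0.39 (0.35 to 0.44).

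The shift between eno1a and eno3 does not depend on scaling. eno1a against eno3 was 1.94-fold higher in mutant RNA and 1.80-fold higher in mutant footprints. eno3 held 51.1% of the enolase FPKM in siblings and 35.0% in mutants, while eno1a went from 39.7% to 53.2%. eno2, the neuronal enolase of mammals, had log2 ratios of 0.22 in RNA and 0.19 in footprints, and eno1b 0.05 and 0.26. eno1a did not differ from eno2 in RNA beyond counting error (difference -0.07, -0.18 to 0.03), nor from eno1b (0.09, -0.06 to 0.25). In footprints eno1a exceeded eno2 by 0.20 (0.12 to 0.29), and its difference of 0.13 from eno1b was within counting error. eno4 had under 100 counts in each assay.

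aldoaa (ENSDARG00000011665), a copy of the muscle aldolase of mammals, stayed close to its sibling level. It had 8530 and 9387 RNA counts, or 379.9 and 345.6 FPKM, a log2 ratio of -0.16 (-0.20 to -0.11). Its footprints were 4022 and 11388 counts, or 192.1 and 431.2 TPM, with a log2 ratio of 0.09 (0.03 to 0.14). The other copy, aldoab, did not pass 2-fold in either assay, with log2 ratios of -0.73 and -0.76.

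The brain aldolase genes went separate ways. aldocb had 6326 and 8025 RNA counts (log2 ratio 0.05), with 6740 and 21735 footprint counts (0.27), whereas aldoca, a minor gene with 283 and 97 RNA counts, was 2-fold or more lower in RNA (-1.83) and in footprints (-1.74).

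Of the 9 genes pkma (ENSDARG00000099730) had the largest RNA ratio. This copy of the muscle and brain pyruvate kinase had 5101 and 7554 RNA counts, or 154.8 and 200.7 FPKM, a log2 ratio of 0.27 (0.22 to 0.32). Its footprints were 5462 and 16581 counts, or 240.3 and 547.7 TPM, with a log2 ratio of 0.19 (0.14 to 0.23). The other copy, pkmb, had ratios below 1 in RNA (-0.74) and in footprints (-0.68). pklr, the pyruvate kinase of liver and red cells in mammals, had 1713 and 270 RNA counts (log2 ratio -2.96, -3.15 to -2.77) and 249 and 36 footprint counts (-4.19, -4.75 to -3.70). pkma against pklr was thus 9.38-fold higher in mutant RNA and 20.8-fold higher in mutant footprints. pkma held 43.3% of the pyruvate kinase FPKM in siblings and 67.5% in mutants, and 90.9% and 96.1% of the TPM.

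**Figure D2:**
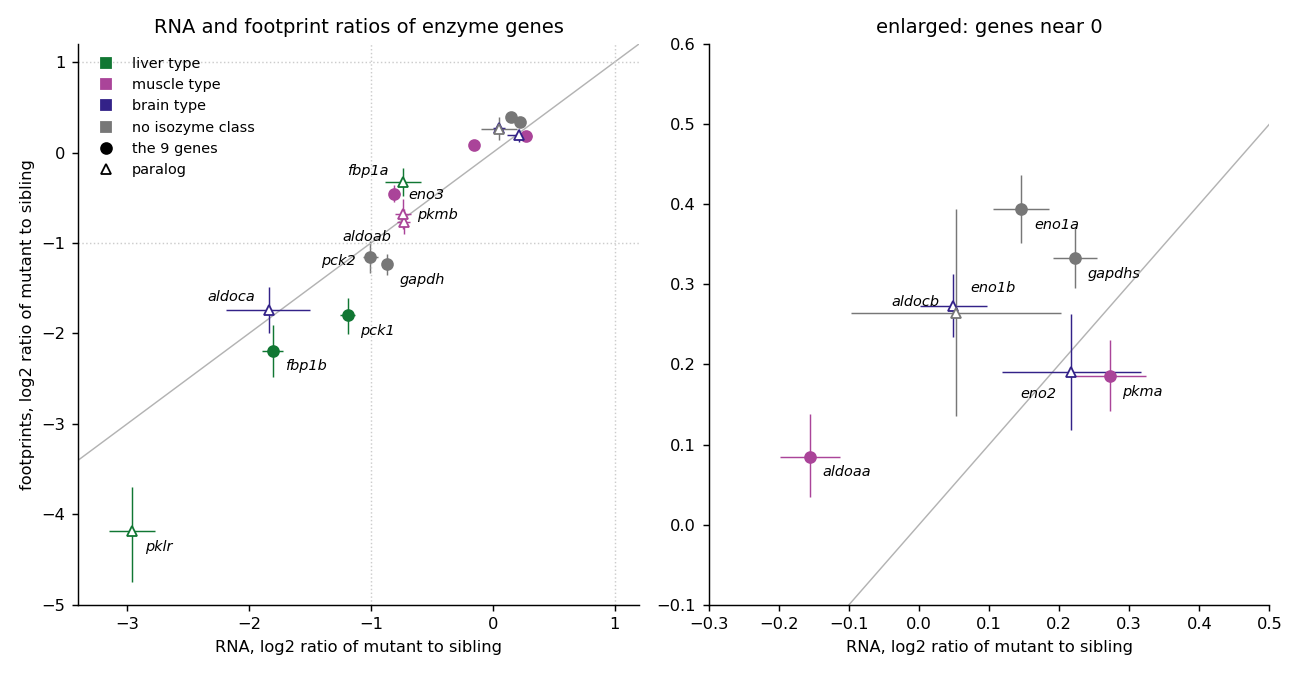
The log2 ratio of mutant to sibling in footprints against that in RNA for the 9 genes (filled circles) and their measured paralogs (open triangles), coloured by the tissue of the mammalian isozyme, with 95% counting intervals, the line of equal ratios, dotted lines at 2-fold in the left panel and genes near 0 enlarged on the right. pklr, fbp1b, pck1, pck2 and aldoca lie below -1 on both axes, whereas gapdhs, pkma and eno1a lie between 0 and 0.4 on both.

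Ranked per length in sibling RNA, the order was gapdh, gapdhs, eno3, aldoaa, eno1a, fbp1b, pck1, pkma and pck2. pck1 at 157.2 FPKM and pkma at 154.8 FPKM did not differ beyond counting error. In mutant RNA gapdhs came first and gapdh second, at 776.7 and 763.5 FPKM with overlapping intervals, followed by eno1a, aldoaa, eno3, pkma and pck1. fbp1b and pck2 came last at 57.4 and 55.5 FPKM, also with overlapping intervals. Among sibling footprints gapdhs, eno1a, pkma and aldoaa led, between 374.8 and 192.1 TPM. gapdh and eno3 followed at 56.6 and 54.5 TPM, and fbp1b, pck1 and pck2 lay together between 14.3 and 13.2 TPM. The 3 gluconeogenic genes also came last in mutant footprints, between 12.5 and 6.60 TPM.

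Summed over each of 5 families, the RNA ratio was below 1, at log2 values of -1.10 for phosphoenolpyruvate carboxykinase and -1.54 for fructose-bisphosphatase. The sums of glyceraldehyde phosphate dehydrogenase, enolase and pyruvate kinase had log2 ratios of -0.40, -0.22 and -0.32. Footprint sums behaved differently. Carboxykinase (-1.45) and fructose-bisphosphatase (-0.77) were below 0, and the dehydrogenase, enolase and pyruvate kinase stood at 0.20, 0.25 and 0.08. In the dehydrogenase, enolase and pyruvate kinase families, the copies with the most footprints, gapdhs, eno1a and pkma, had ratios above 1. The other copies did not sort by footprints. eno1b had fewer sibling footprint counts (644) than eno3 (1314), yet its ratios were above 1 and those of eno3 below. pck1 and pck2 had similar sibling footprint counts (482 and 476) and were both lower.

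**Figure D3:**
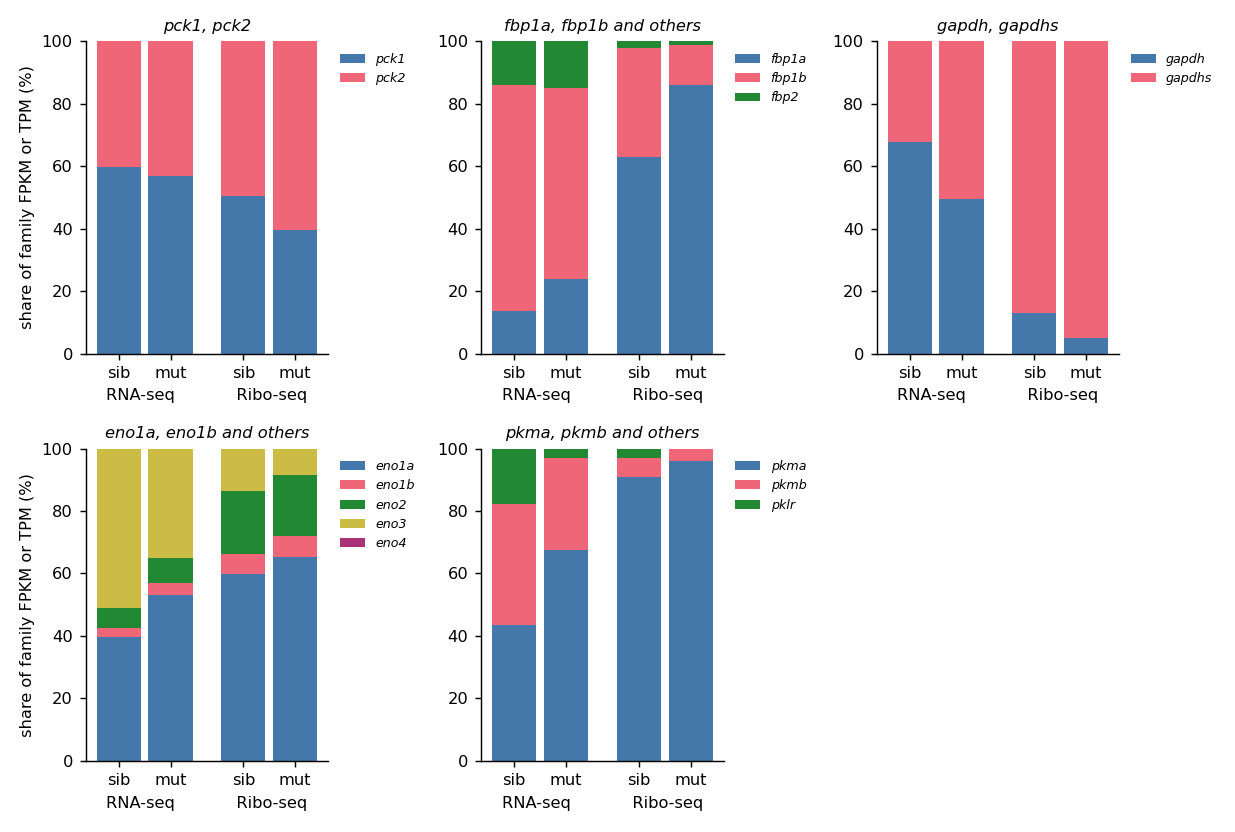
Share of each gene in the summed FPKM (RNA-seq) or TPM (Ribo-seq) of its enzyme family, in percent, with 1 bar per library (sib, sibling; mut, mutant). gapdhs goes from 32.3% to 50.4% of RNA and pkma from 43.3% to 67.5%, and in footprints gapdhs and pkma hold over 86% and 90% in both genotypes.

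The genes differed far more in footprints per RNA than the genotypes did. This quantity is the ratio of footprint to RNA counts of a gene, on the log2 scale relative to the median gene of the same genotype. RNA reads come from whole transcripts and footprints mainly from coding sequence, and the assays used separate heads. In the sibling libraries gapdh stood at -3.54 and gapdhs at 0.13. fbp1b, pck1 and pck2 stood at -2.80, -2.65 and -2.44, and eno3 at -1.81. aldoaa lay at -0.03, eno1a at 0.42 and pkma at 1.16. gapdh and the gluconeogenic genes thus had few footprints for their RNA in the siblings already.

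The measured paralogs of the 9 genes also spread widely on this scale. aldoab and pkmb, which are counted with the muscle enzymes, stood at -2.07 and -2.17, and the liver copy pklr at -1.72. The brain copies eno2, aldocb and aldoca lay between 1.07 and 1.58. The liver copy fbp1a stood at 0.29 and eno1b, a copy of the widely expressed enolase, at 1.03. aldoaa and pkma, given above, are also counted with the muscle enzymes but were not low. The pyruvate kinase that pkma and pkmb copy serves both muscle and brain. The medians of the liver, muscle and brain enzyme lists were -1.72, -0.97 and 1.00, and those of liver, skeletal muscle and neuron markers were -2.42, -1.66 and 0.72. The other marker lists had sibling medians of -3.75 for intestine and -3.015 for exocrine pancreas, both below liver. The rest, heart included (0.20), lay between -0.42 and 0.26. For liver, muscle and brain alone, the medians of markers and of enzymes came in the same order. What part tissue or the preparation of each assay had in this was not tested.

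Translation efficiency, the footprint ratio divided by the RNA ratio, differed by less than 2-fold for each of the 9 genes. Over 14455 genes, 3.55% were higher and 3.18% lower. The lowest log2 value was that of pck1 at -0.61 (-0.82 to -0.41), followed by fbp1b at -0.38 (-0.68 to -0.09) and gapdh at -0.37 (-0.49 to -0.25). pck2 and pkma stood at -0.15 (-0.34 to 0.03) and -0.09 (-0.15 to -0.02). These 5 values were above 0 under scaling by total counts, so their direction depends on the scaling. The highest was eno3 at 0.35 (0.25 to 0.46), followed by eno1a at 0.25 (0.19 to 0.31), aldoaa at 0.24 (0.17 to 0.31) and gapdhs at 0.11 (0.06 to 0.16). The first 3 of these were above 0 under each scaling tried. Of the paralogs, pklr had the lowest value, at -1.23 (-1.77 to -0.70).

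**Figure D4:**
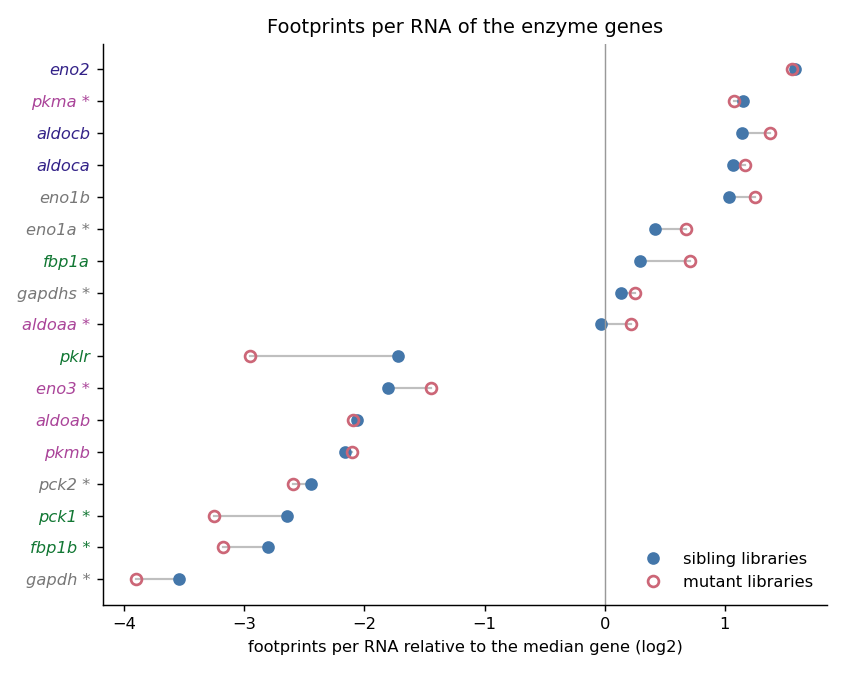
Footprints per RNA on the log2 scale, relative to the median gene, in the sibling (filled) and mutant (open) libraries for the 9 genes (starred) and their paralogs, with names coloured by isozyme tissue (green liver, purple muscle, blue brain, grey none). Genes span from -3.54 for gapdh to 1.58 for eno2 in the sibling libraries, and a line between the points, shortest for eno2, aldoab and pkmb, shows the difference between genotypes.

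Grouped by the tissue of the mammalian isozyme, liver enzymes were the lowest class. Of 11 measured liver enzymes, 7 were lower in RNA and none higher (median -1.19), and of 7 measured in footprints 4 were lower (median -1.80). The list includes pck1 and fbp1b, and without them 5 of 9 were lower in RNA and 2 of 5 in footprints. gck, the glucokinase that lets hepatocytes sense glucose, had 329 RNA counts in siblings and 14 in mutants, the lowest ratio of the class (log2 -4.80, -5.74 to -4.08). In RNA slc2a2, the glucose transporter of liver, was at -1.69, gys2, the liver glycogen synthase, at -2.07, and pygl, the liver glycogen phosphorylase, at -1.15. Footprint counts were under the minimum for gck (21 and 26), slc2a2 (64 and 27) and gys2 (67 and 5). The phosphofructokinase genes pfkla (-0.20 in RNA and -0.03 in footprints) and pfklb (-0.06 and 0.17) were nearest to a ratio of 1 in the class. Liver markers had medians below 0 as well, but their list differed from that of the enzymes. Of 19 liver markers, 10 were lower and 1 higher in RNA (median -1.04), and 16 of 17 were lower in footprints (median -2.93). In RNA 7 of the 19 markers had a ratio above 1, against none of the 11 enzymes. In translation efficiency under TMM, 14 of 17 markers were lower and 1 higher (median -2.545). Of 7 liver enzymes 1 was lower and none higher (median -0.38). Among intestine markers 8 of 9 were lower in RNA, with sums of 4919.2 and 993.4 CPM. All 11 exocrine pancreas markers were lower in RNA, with sums of 6490.8 and 258 CPM. Kidney tubule markers, 2 of 8 lower and 2 higher in RNA, summed to 461 and 247.6 CPM. Of these, cdh17 alone had 5038 and 2492 RNA counts, most of the RNA of the list in each library. The median log2 RNA ratio of the list was -0.23, and its footprints summed to 210.6 and 236.4 CPM. The RNA of the 5 red cell markers summed to 663.6 and 376.6 CPM. The part that tissue content had in the values of pck1, fbp1b and the other liver enzymes was not tested.

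Muscle enzymes did not follow muscle markers in RNA. Of 13 muscle enzymes, 10 had an RNA ratio below 1, with a median log2 ratio of -0.44, and 1 (fbp2) passed 2-fold. The median was -0.45 without eno3, aldoaa and pkma. eno3, aldoab, pkmb and pgam2, the muscle phosphoglycerate mutase, lay together between -0.81 and -0.73. Of 22 skeletal muscle markers, 19 had an RNA ratio above 1 (median 0.45), with 2 higher and none lower by 2-fold, and their summed level was 0.34 higher on the log2 scale. In footprints both lists were below 0 under TMM, with medians of -0.36 for the enzymes and -0.49 for the markers. Both medians turn positive under scaling by total counts, so their direction depends on the scaling. The RNA ratio of eno3 was thus below 1 in a library in which most muscle markers had more RNA.

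Brain enzymes and neuron markers both had ratios near 1, which is where TMM places the typical gene. The number of neurons therefore cannot be read from these ratios. Of 13 brain enzymes, 9 were above 1 in RNA (median 0.12) and 12 in footprints (median 0.26), with only aldoca past 2-fold. Neuron markers had medians of 0.07 and 0.11. hk1, the hexokinase of brain, had log2 ratios of 0.47 and 0.38, pfkpa, a platelet and brain type phosphofructokinase, 0.45 and 0.30, and slc2a3a, a neuronal glucose transporter, 0.34 and 0.65. Of the 4 brain enzymes below 1 in RNA, pygb, a brain glycogen phosphorylase, stood at -0.58 and 0.005, and pgam1a at -0.54 and 0.32. gapdhs (0.22 and 0.33), pkma (0.27 and 0.19) and eno1a (0.15 and 0.39) lay above 0 in both assays, as did most of the list.

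**Figure D5:**
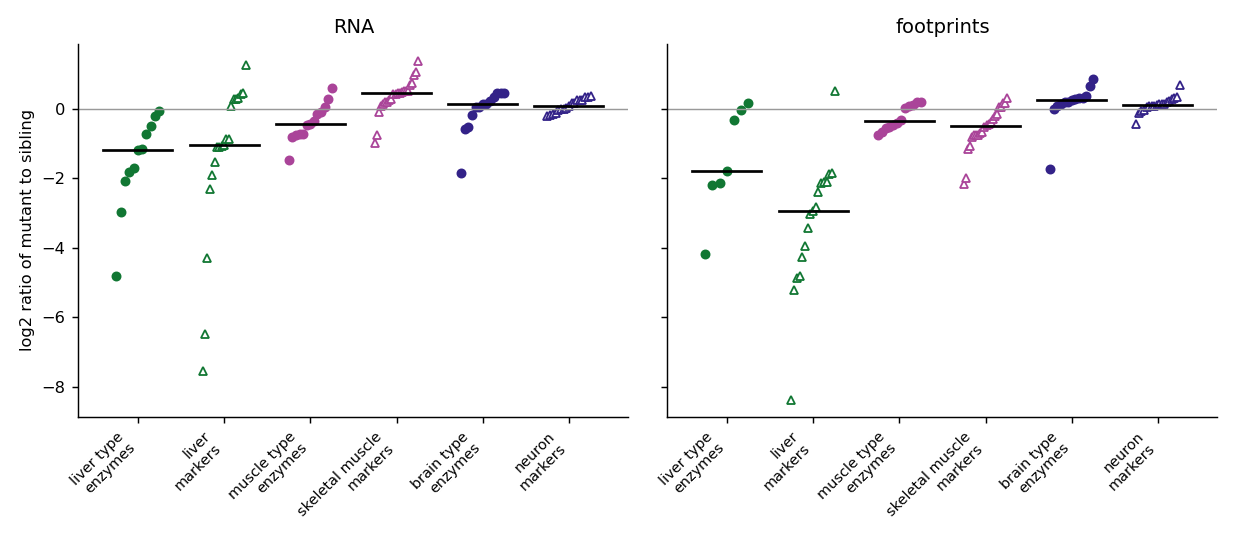
The log2 ratio of mutant to sibling in RNA (left) and footprints (right) for each measured enzyme gene of the liver, muscle and brain type (filled circles) and for markers of liver, skeletal muscle and neurons (open triangles), with a bar at each median. In RNA the muscle enzymes have a median of -0.44 against 0.45 for the muscle markers, whereas liver enzymes (-1.19) and liver markers (-1.04) are both below 0.

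The rest of the pathway was read from lists of known enzymes. Of 28 glycolysis genes other than these 9, 4 were lower in RNA and none higher (median -0.22). They were gck, hkdc1, aldoca and pklr. hkdc1, a hexokinase family gene, had 817 and 217 RNA counts (log2 ratio -2.20) and a footprint ratio of -1.15 (-1.60 to -0.70). In footprints 3 of 27 were lower (hkdc1, aldoca and pklr), with a median of 0.14. These calls depend on the scaling. Of all 33 glycolysis genes measured in footprints, those among the 9 included, 4 were lower and none higher under TMM. Under scaling by total counts 2 were lower and 6 higher, against 200 and 3474 of all 15729 genes. RNA and footprint ratios were -0.16 and 0.23 for pgk1, phosphoglycerate kinase, -0.46 and 0.11 for ldha, a lactate dehydrogenase, and -0.54 and 0.32 for pgam1a, a phosphoglycerate mutase.

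Of 8 further genes of the steps particular to gluconeogenesis, 2 were lower in RNA (median -0.61), fbp2 and pcxb. pcxb, a pyruvate carboxylase, which makes the oxaloacetate that pck1 and pck2 use, had 1929 and 888 RNA counts (log2 ratio -1.41) but a footprint ratio of -0.30, and a translation efficiency of 1.11 on the log2 scale. Its copy pcxa stood at -0.26 and -0.17. slc37a4a, the transporter that brings glucose phosphate into the endoplasmic reticulum, was at -0.87 in RNA and -1.14 in footprints. g6pc1a.1, a glucose phosphatase, had 288 and 252 RNA counts (-0.49) and 37.0 and 4.35 footprint counts, under the minimum of 100. All 8 genes of this list that could be measured in footprints, pck1, pck2 and fbp1b included, had a ratio below 1 under TMM. Those nearer to 1, such as fbp1a (-0.32), pcxb and pcxa, turn positive on the log2 scale under scaling by total counts.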

How the data were processed

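Heads of 5 dpf noc4l mutants and siblings were profiled by RNA-seq and Ribo-seq, with 1 library for each of the 4 groups that the labels give. For each gene and genotype the authors deposited an estimated count, beside FPKM for RNA-seq and TPM for Ribo-seq. HISAT2 and featureCounts are named in the submitters' processing notes. Versions, genome build and the treatment of multiply mapped reads: not given in the sources used here. Those tables also hold a deposited floored signal, which the authors made as copies of FPKM and TPM with values under 0.001 set to 0.001. It was not used for results. Deposited fold changes, p-values and FDR are the authors' own comparisons and were not used. In Ribo-seq, 0.00303% of sibling and 0.000746% of mutant counts stood in a row that names no gene and were left out.

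Counts were scaled with TMM in edgeR 4.0.16 under R 4.3.3. The factors were 0.972 and 1.029 in RNA-seq and 0.781 and 1.281 in Ribo-seq. Log2 ratios of mutant to sibling CPM had 0.5 counts added. Intervals at 95% are exact Poisson for counts and levels, exact conditional binomial for ratios, Clopper-Pearson for shares of counts, and from the Poisson error of 4 counts for translation efficiency and ratios between paralogs. With 1 library per group no test was made. A copy of the procedure was tested on simulated counts. Python 3.11.15, pandas 2.3.3, scipy 1.17.1 and matplotlib 3.10.9 were used.

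Of 239 symbols in the gene lists 231 were found, 1 of them through the annotation table (GRCz12tu), which also gave the overlap of genes. Named are all 9 members, 10 paralogs in 6 families, noc4l, and of other lists up to 4 genes with the largest ratio in each assay. The genes pgk1, ldha, pgam1a, slc2a3a, pfkpa, pfkla, pfklb, pcxa, g6pc1a.1, gcgra and pmepa1 were named after their values were seen where that rule did not name them. An item is not reported here and was left out of every list and family. Members and lists were chosen with earlier results of these data known. Alternatives were scaling by total counts or RLE, deposited FPKM and TPM with 1 added, a minimum of 10 counts, and 5 counts added. Scaling by total counts without the 4 most abundant genes was added after the data were seen. Reads of near-identical copies may be split between paralogs, and how this was done cannot be checked here. Footprint counts of fbp1b, aldoaa, aldoab, aldocb, eno1a, eno1b, eno2 and eno3 were not whole numbers and are rounded where printed. Those of pck1, pck2, gapdh, gapdhs, pkma and pkmb were whole. RNA counts of pkma, and of eno3 in the mutant library, were not whole. The intervals treat all counts as independent and take no account of such splitting.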

Additional observations from a re-analysis of the deposited data

How the results depend on the processing

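The sign of each RNA ratio of the 9 genes was kept under every alternative. Scaling mattered for footprints, because the 4 most abundant genes held unequal shares of both libraries. Scaling by total counts moved the median log2 ratio of all genes from 0.02 to 0.74 in footprints and to 0.62 in translation efficiency, and deposited TPM moved it to 0.95 in footprints. Under total counts 2 of the 9 genes were higher and 2 lower in footprints, against 3474 and 200 of all 15729 genes. With the deposited values 4 were higher and 1 lower in footprints, against 7009 and 123 of 15729. In translation efficiency 4 were then higher, against 5255 of 14455. gapdh and pck2 footprints then stood at -0.52 and -0.45 with total counts and at -0.15 and -0.07 with TPM, and eno3 at 0.26 and 0.67. Leaving the 4 most abundant genes out of the totals, an alternative added after the data were seen, gave 4 lower and none higher in footprints, as with TMM. Over all 15729 genes, 589 were then lower and 283 higher. pck2 was 2-fold lower in RNA by a narrow margin, and stood at -0.92 with total counts and -0.91 with FPKM. RLE, a minimum of 10 counts and 5 counts added left the number of these genes past 2-fold as it was.
No paired analysis was possible because each group has 1 library, so no replicate could be left out either, and counting error is the only error these data give.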

Other observations

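Genes of pathways beside glycolysis varied in their own ways. Of 14 measured glycogen genes 4 were lower in RNA and none higher (median -0.51). They were gys2, pygl, gbe1b, the branching enzyme (-1.02), and pgm1, phosphoglucomutase (-1.34). pgm1 had 720 and 1579 footprint counts, a footprint ratio of only -0.28. In footprints pygl (-2.13) and ugp2a, which makes UDP-glucose (-1.04), were the 2 of 13 that passed 2-fold. The interval of ugp2a, -1.28 to -0.79, spanned the threshold. All 8 pentose phosphate genes had an RNA ratio below 1 (median -0.38) but 5 of them had a footprint ratio above 1 (median 0.03), and none passed 2-fold in either assay. Of 10 genes of pyruvate oxidation none passed 2-fold, and pdk4, a kinase that holds pyruvate dehydrogenase back, stood at 0.28 in RNA and -0.35 in footprints.

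Regulators of glucose metabolism included the only genes of the metabolic lists that were 2-fold higher in RNA, 3 of 22. Over all 17243 measured genes, 3.14% were higher in RNA. gcga and gcgb, the glucagon genes, had 253 and 1136 RNA counts (log2 ratio 1.87, 1.67 to 2.08) and 115 and 430 (1.60, 1.31 to 1.92). Their footprints were few, at 16 and 120 counts for gcga (1.45, 0.73 to 2.34) and 29 and 128 for gcgb (0.71, 0.14 to 1.36). pfkfb3, which makes an activator of phosphofructokinase, had 338 and 1287 RNA counts (1.63) but a footprint ratio of 0.38. In mammals glucagon raises pck1. The glucagon receptor gene gcgra had an RNA ratio of -0.76. Whether glucagon had a part in the level of pck1 was not tested.

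The genes closest to pck1 in both ratios, among 1513 of like RNA level, were actc1a, a cardiac actin (-1.30 in RNA and -1.80 in footprints), mat1a, a liver enzyme that makes S-adenosylmethionine (-1.20 and -1.63), and cldn15la, a claudin (-1.39 and -1.81). Closest to eno3 among 589 were glud1b, glutamate dehydrogenase (-0.89 and -0.44), hmgn2 and pvalb8, a parvalbumin. Closest to gapdhs among 430 were eif1, cfl1l and cd63. These likenesses rest on 2 ratios from 4 libraries.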
